A study of Danio rerio with 4 samples.

Results

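The transcription factor genes hand2 (ENSDARG00000008305) and gata6 (ENSDARG00000103589) were followed through single-cell RNA-seq of embryonic zebrafish (Danio rerio) hearts. They were 2 of the 25434 genes counted, and their values were raw UMIs (unique molecular identifiers, each standing for 1 captured transcript) per authors' cluster, per stage and per library. There were 4 libraries of whole hearts from pooled embryos, 2 at 72 hours post fertilization (hpf) and 2 at 48 hpf. At each stage, 1 library came from the cross of the enhancer trap line sqet31Et with Tg(myl7:mRFP) and 1 from the cross of sqet33mi59BEt with the same line. All 4 libraries therefore carried mRFP, driven in cardiomyocytes by the myl7 promoter, and an EGFP insertion active around the sinoatrial or atrioventricular (AV) region. Embryos were screened for heart fluorescence and hearts were picked under a fluorescence microscope, whereas the dissociated cells were not sorted. The authors call the lines of a stage pseudo-replicates, so p-values measured the spread between lines and pools, not between animals.

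Hand2 is a basic helix-loop-helix (bHLH) factor that pairs with E-proteins such as tcf3 and tcf12. It is known in zebrafish from the hands off mutants, in which few cardiomyocytes form. Gata6 is a zinc finger factor of the cardiac GATA group, together with gata4 and gata5, whose activity is tuned by the FOG cofactors (zfpm genes). In vertebrate hearts the GATA and Hand factors work in the same network as nkx2.5 and the T-box factors, in muscle as well as in endocardium, the inner lining of the heart.

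The annotated cells were 34676 of 52447 barcodes in 18 clusters, and the other 17771 barcodes all carried the deposited doublet mark. That mark covers more than doublets, since 61 of these barcodes fell under the authors' limit of 200 genes. Another 5422 exceeded their limit of 2500 genes, which the authors used to remove possible multiplets. Median depth of the annotated cells ran between 845 UMIs per cell in the 72 hpf sqet33mi59BEt library and 2488 in the 48 hpf sqet33mi59BEt library. The libraries held 24073652 to 109489623 UMIs in all their barcodes. Between 28 and 71 barcode sequences were shared by each pair of libraries. Levels are given as CPM, the UMIs of a gene scaled to 1000000 UMIs summed over the cells of a cluster in 1 library. Marker lists for Myocardium, Erythrocytes, Epicardium, AV endocardium and Bulbus arteriosus each had their highest level in the cluster of that name. The list for endothelium and endocardium was highest in AV cushion (2419 to 4969 CPM), followed by Endothelial cells (2777 to 3866 CPM). Mesenchymal fibroblasts had the highest level of the epidermal (7745 to 17484 CPM), fibroblast (3113 to 9514 CPM) and liver and gut lists (34.7 to 1662 CPM). The Myocardium list was next highest in Resident fibroblasts, at 312 to 23932 CPM. The Bulbus arteriosus list (elnb and fbln5) stood at 2604 and 2267 CPM at 72 hpf but at 43.4 and 24.3 CPM at 48 hpf, and the Epicardium list at 2740 and 2954 CPM at 72 hpf against 956 and 283 CPM at 48 hpf. These defining genes were thus scarce in the 48 hpf cells of the Bulbus arteriosus cluster. The authors found the clusters from the same expression values, so levels across clusters are described without a test.

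hand2 had its 2 highest levels in the atrioventricular valve region. The paper lists hand2 itself among the genes that set AV endocardium and AV cushion apart, so this rank is not independent of the labels. In AV cushion it averaged 962 ± 339 CPM, and in AV endocardium 917 ± 163 CPM (SD, n = 4 libraries here and below). The libraries of AV endocardium read 687 and 1073 CPM at 72 hpf (sqet31Et, then sqet33mi59BEt, as in all such pairs) and 964 and 943 CPM at 48 hpf. Those of AV cushion read 654 and 1443 CPM at 72 hpf and 833 and 917 CPM at 48 hpf. The ranges of these clusters overlapped, whereas every library of AV endocardium was above every library of the next cluster, Endothelial cells, at 466 ± 114 CPM. This was the 1 gap without overlap among the 17 neighbouring pairs of the hand2 order. After each cell was thinned to 500 UMIs, 34.4% of AV cushion cells, 34.2% of AV endocardium cells and 17% of Endothelial cells held a hand2 UMI.

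Below the endothelium, hand2 reached 421 ± 156 CPM in Neural crest, 329 ± 81.0 CPM in Bulbus arteriosus, 322 ± 144 CPM in Endothelial precursors, 306 ± 72.7 CPM in Epicardium and 304 ± 73.8 CPM in Myocardium. Erythrocytes, which are not a known site of hand2, stood at 198 ± 73.0 CPM, with a UMI in 9.93% of their thinned cells, and served as the comparison for background. Free RNA itself was not measured. Median depth was 667 UMIs per cell in Erythrocytes and 1510 in Myocardium. In CPM and in the thinned share, 7 of the other 17 clusters exceeded Erythrocytes within each of the 4 libraries, namely those named above without Endothelial precursors, which exceeded them in CPM alone. Myocardium was among these 7, with 12.1% of thinned cells holding a UMI. The Unclassified cells (224 ± 54.2 CPM) lay near the erythrocyte level.

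The remaining clusters had hand2 means under that of Erythrocytes, and 5 of them were under it in CPM in each of the 4 libraries. Erythrocytes were thus not a floor common to all clusters, and background and expression cannot be told apart there. In Mesoderm progenitors, at a median depth of 6607 UMIs, 29.0% of cells held a hand2 UMI as counted, against 15.6% of Erythrocytes, and 7.07% after thinning. Resident fibroblasts had 159 ± 98.0 CPM, Mesoderm progenitors 154 ± 30.2 CPM, Proliferating cells 144 ± 42.3 CPM and Cardiac peripheral nerves 99.8 ± 68.3 CPM. Mesenchymal fibroblasts had 53.2 ± 26.8 CPM, Leukocytes 45.8 ± 33.6 CPM, Hematopoietic precursor cells 29.1 ± 27.3 CPM and Neuronal cells 18.5 ± 15.6 CPM. No hand2 UMI was found in 45 Leukocytes of the 72 hpf sqet33mi59BEt library, which limits the share of cells with a UMI at this depth to 6.67%, for counting error only, and not the share of expressing cells. By number of UMIs rather than level, Endothelial cells held 45.2% of all hand2 UMIs of annotated cells, AV endocardium 19.7% and Myocardium 10.7%.

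gata6 had a flatter order, led by AV cushion and Myocardium. AV cushion averaged 236 ± 47.4 CPM and Myocardium 210 ± 63.3 CPM. Myocardium read 170 and 192 CPM at 72 hpf and 303 and 173 CPM at 48 hpf, so that the 48 hpf sqet31Et library stood above the other 3. Epicardium followed at 190 ± 118 CPM, AV endocardium at 163 ± 48.8 CPM, Endothelial cells at 160 ± 44.5 CPM, Bulbus arteriosus at 121 ± 64.1 CPM and Endothelial precursors at 115 ± 25.1 CPM. All 17 neighbouring pairs of the gata6 order overlapped in their library ranges. The first places also changed with the weighting, since Epicardium led (261 CPM) and Myocardium was second (235 CPM) when all cells were pooled.

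Erythrocytes had 84.2 ± 28.9 CPM of gata6 and a UMI in 4.5% of thinned cells. Clusters that exceeded them within each library in CPM and in the thinned share were Myocardium, Endothelial cells, AV endocardium and AV cushion, with 8.60%, 7.43%, 7.70% and 9.86% of thinned cells holding a UMI. The means of Unclassified cells (71.7 ± 17.7 CPM), Proliferating cells (55.1 ± 9.86 CPM), Neural crest (52.9 ± 45.0 CPM), Resident fibroblasts (45.2 ± 42.6 CPM) and Mesenchymal fibroblasts (36.8 ± 17.3 CPM) lay under the erythrocyte mean. So did those of Cardiac peripheral nerves (31.7 ± 12.6 CPM), Leukocytes (28.5 ± 32.1 CPM), Mesoderm progenitors (27.7 ± 25.1 CPM), Hematopoietic precursor cells (11 ± 5.7 CPM) and Neuronal cells (2.08 ± 4.16 CPM). In CPM, 8 clusters were under Erythrocytes in every library, so for gata6 too Erythrocytes were not a common floor. Neuronal cells had 3 gata6 UMIs in all, and 0 in the 130 cells of the 72 hpf sqet33mi59BEt library, which limits the share of cells with a UMI to 2.31% in the same sense. Endothelial cells held 42.3% of the gata6 UMIs and Myocardium 25.1%.

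**Figure D1:**
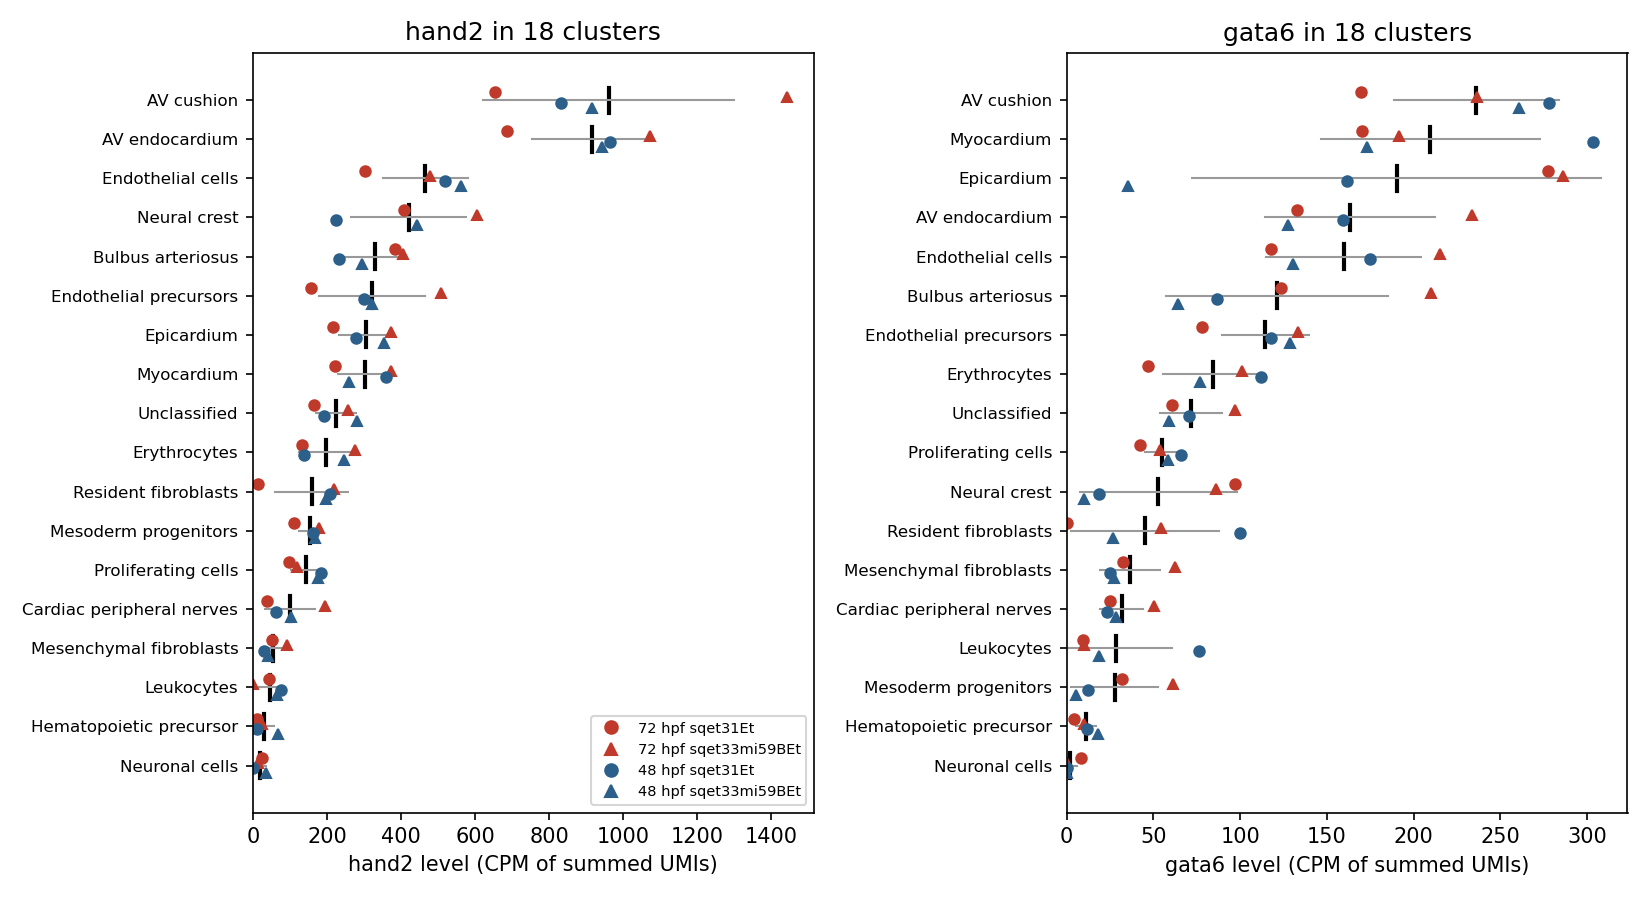
Level of hand2 (left) and gata6 (right) in each of the 18 clusters, as CPM of summed UMIs, with 1 point per library; the black bar is the mean of the 4 libraries and the grey line is 1 SD to each side. AV cushion and AV endocardium (means of 962 and 917 CPM) stand apart for hand2, while the gata6 clusters overlap from 236 CPM downwards.

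Lines within a stage differed together in many clusters. At 72 hpf, hand2 was higher in the sqet33mi59BEt than in the sqet31Et library in 16 of 18 clusters, Erythrocytes included (275 against 133 CPM), with a median log2 ratio of 0.74 over the 17 clusters with UMIs in both. gata6 was higher in that library in 16 of 18 clusters too (101 against 47.2 CPM in Erythrocytes), with a median of 0.77. At 48 hpf, hand2 was higher in the sqet33mi59BEt library in 13 of 18 clusters and gata6 in 4 of 18. The part of depth or free RNA in these differences was not tested.

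The number of hand2 UMIs per gata6 UMI does not depend on depth scaling. It compares clusters, not the abundance of the genes with each other. Over the 11 clusters with at least 10 gata6 UMIs in every library, the ratio of all UMIs was lowest in Myocardium (1.30) and next in Mesenchymal fibroblasts (1.47). Myocardium libraries stood at 1.31 and 1.95 at 72 hpf and 1.19 and 1.51 at 48 hpf. Mesenchymal fibroblasts read 1.56 and 1.46 at 72 hpf and 1.17 and 1.52 at 48 hpf, so the ranges of these clusters overlapped. In AV endocardium it was 5.18 and 4.60 at 72 hpf and 6.06 and 7.39 at 48 hpf, so every library was above every Myocardium library. Endothelial cells lay between, from 2.23 to 4.33, without overlap with either. Erythrocytes had 2.82 and 2.73 at 72 hpf and 1.23 and 3.20 at 48 hpf and overlapped both the Endothelial cells and Myocardium. Bulbus arteriosus, from 1.93 to 4.59, overlapped Myocardium as well. Mesenchymal fibroblasts were under Erythrocytes in CPM of both genes in every library, so background may make up their ratio. Neural crest had the highest ratio, 11.3 over all its UMIs, since it combined a hand2 level of 421 CPM with a gata6 level under the erythrocyte mean.

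**Figure D2:**
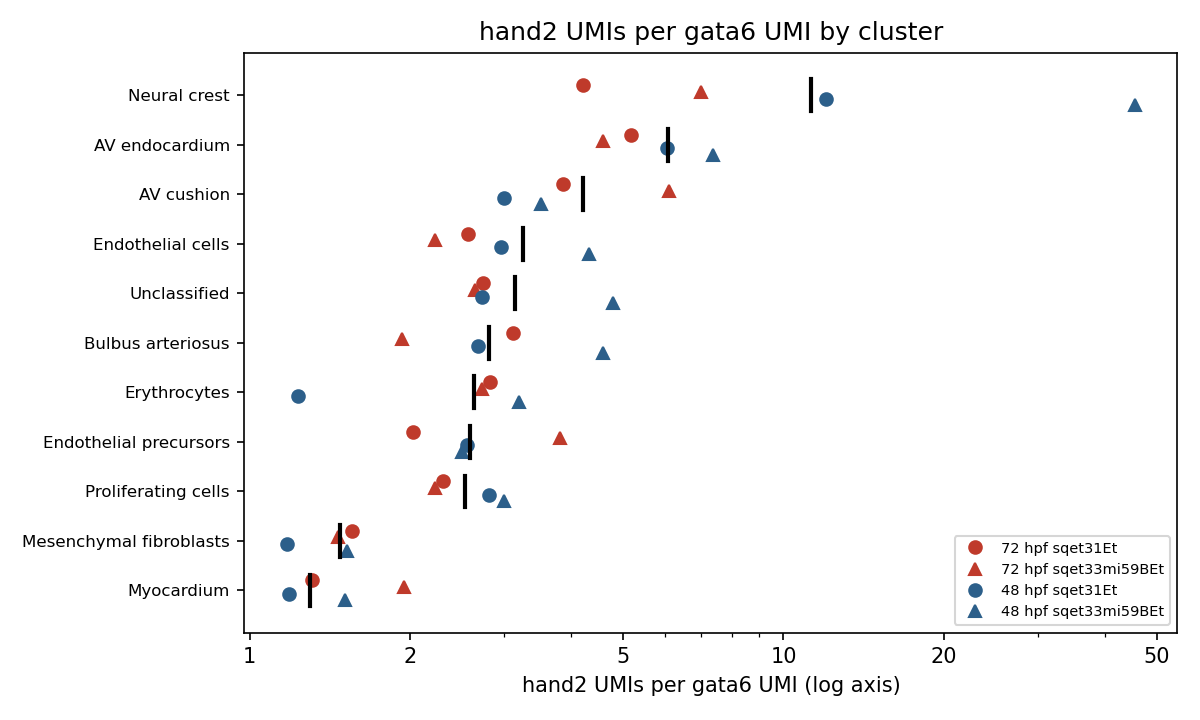
Number of hand2 UMIs per gata6 UMI in 11 clusters (log axis), with 1 point per library; the black bar is the ratio of all UMIs of the cluster. Myocardium lies between 1.19 and 1.95, AV endocardium between 4.60 and 7.39, and Neural crest spreads from 4.22 to 45.6.

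Across the 18 clusters, the levels of the 2 genes ran together. Pearson's r was 0.88 and Spearman's rho 0.85 between mean log2(CPM + 1) of hand2 and gata6, and r within single libraries lay between 0.69 and 0.91. The points share libraries and free RNA, so this is a description. Among 12735 genes that reached a mean of 10 CPM in a cluster, gata6 ranked number 89 in likeness to hand2 and hand2 number 46 in likeness to gata6. The genes most like hand2 were smad9 (r = 0.96), gata5 (r = 0.95), SH3PXD2A (r = 0.94), SMAD6 (r = 0.93) and TGFB3 (r = 0.93), the last 3 given by the human-style symbols of the annotation. smad9 encodes a transducer and SMAD6 an inhibitor of BMP signalling, and TGFB3 a transforming growth factor. gata5 was also the gene most like gata6 (r = 0.94), before MAPKAPK3 (r = 0.94), qkia (r = 0.93), gna12a (r = 0.92) and akap13 (r = 0.92). gata5 had its highest level in AV cushion (409 CPM), as did hand2 and gata6.

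The study compared hearts at 72 and 48 hpf. Neither hand2 nor gata6 passed the threshold (adjusted p under 0.05, edgeR's quasi-likelihood test over all genes of the cluster) in any of the 6 cardiac clusters tested, in edgeR or in DESeq2. Of these 12 tests, 2 had an unadjusted p under 0.05 in edgeR, hand2 in Endothelial cells and gata6 in Bulbus arteriosus. In the same fits 4.11% of genes passed in Myocardium, 8.47% in Endothelial cells, 3.88% in AV endocardium, 5.91% in AV cushion, 4.47% in Epicardium and 8.66% in Bulbus arteriosus. Signs of RNA quality moved with stage too, as the median mitochondrial percent per cell was higher at 72 hpf in all 6 clusters, for example 15.0 and 7.83 at 72 hpf against 2.30 and 2.98 at 48 hpf in Endothelial cells and 19.2 and 11.2 at 72 hpf against 4.31 and 8.46 at 48 hpf in Myocardium. Depth per cell moved with stage in some clusters. Median UMIs per cell in Endothelial cells were 1821 and 868 at 72 hpf against 4364 and 5611 at 48 hpf. In AV endocardium they were 3879 and 1422 at 72 hpf against 8279 and 8574 at 48 hpf. Myocardium had 1824 and 891 at 72 hpf against 2735 and 1832 at 48 hpf, and AV cushion 1785 and 810 against 1907 and 2244, both without overlap. In Bulbus arteriosus the stages overlapped (1944 and 914 at 72 hpf, 1413 and 2468 at 48 hpf). They did in Epicardium as well (1590 and 796 at 72 hpf, 1203 and 947 at 48 hpf). The share of gata6 UMIs that lay in annotated cells moved with stage as well, at 49.6% and 58.7% at 72 hpf against 39.1% and 17.1% at 48 hpf. The part of mitochondrial percent, depth and left-out barcodes in the stage values below was not tested. In bulk sums of this kind, fewer expressing cells and less RNA per cell cannot be told apart. With 2 libraries per stage, ranges without overlap often arise by chance, so such ranges here and below only describe the values. The stage ranges of both genes were also apart in Leukocytes, which lay under Erythrocytes in CPM in every library.

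In Endothelial cells, hand2 read 303 and 480 CPM at 72 hpf against 518 and 563 CPM at 48 hpf. The stages did not overlap, and the fold change was -0.75 ± 0.27 (log2, SE) with an adjusted p of 0.12 in edgeR. It was -0.47 when library totals replaced TMM, which raised the median fold change of all endothelial genes to 0.26, against 0.01 with TMM. Library totals also raised the share of higher genes among the endothelial calls to 87.4%, against 68.7% with TMM. Without the 72 hpf sqet33mi59BEt library the fold change was -0.97 and the adjusted p 0.013. That fit has a single 72 hpf library, which is assumed to vary like the 48 hpf pair. gata6 in the same cells read 118 and 215 CPM at 72 hpf and 175 and 130 CPM at 48 hpf. The stages overlapped, and the fold change of -0.16 ± 0.29 turned to 0.13 with library totals (adjusted p of 0.77 and 0.86).

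The related factors gata5 and gata4 passed in Endothelial cells. gata5 fell to 162 and 165 CPM at 72 hpf, against 321 and 352 CPM at 48 hpf (log2 fold change -1.29 ± 0.26, adjusted p = 0.013, edgeR). gata4 fell to between 7.49 and 9.32 CPM at 72 hpf, against 17.2 to 25.9 CPM at 48 hpf (log2 fold change -1.61 ± 0.33, adjusted p = 0.014, edgeR). The calls did not hold throughout. Without the 48 hpf sqet31Et library the adjusted p was 0.075 for gata5 and 0.10 for gata4, without the 48 hpf sqet33mi59BEt library it was 0.0505 for gata5, and after thinning it was 0.069 and 0.083. Other markers moved with stage in Endothelial cells, namely fibroblast markers (1040 and 1044 CPM at 72 hpf against 414 and 428 CPM at 48 hpf), liver and gut markers (214 and 244 CPM at 72 hpf against 1.98 and 0.49 CPM at 48 hpf) and epidermal markers (103 and 107 CPM at 72 hpf against 64.6 and 40.3 CPM at 48 hpf). The endothelial list itself overlapped between stages, at 2789 and 3866 CPM at 72 hpf and 2777 and 2815 CPM at 48 hpf. The part of these lists in the endothelial values of hand2, gata6, gata5 and gata4 was not tested. Whether gata6 differed from gata5 or gata4 in its change was not tested. Of the 11 genes of the GATA and FOG list, 9 were tested in Endothelial cells. Of these 0 were called higher and 2 lower, with a median of 0.50 against 0.01 over all genes. Among all genes tested there, 5.82% were higher and 2.65% lower.

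In AV endocardium, hand2 (687 and 1073 CPM at 72 hpf, 964 and 943 CPM at 48 hpf) had a fold change of -0.30 ± 0.27 (adjusted p = 0.57, edgeR) and gata6 (133 and 233 CPM at 72 hpf, 159 and 128 CPM at 48 hpf) one of 0.14 ± 0.28 (adjusted p = 0.83, edgeR). For both, the 48 hpf libraries lay within the range of the 72 hpf libraries or overlapped it. gata6 turned to -0.18 without the 72 hpf sqet33mi59BEt library and to -0.02 without the 48 hpf sqet33mi59BEt library. In AV cushion, which the authors place in the endocardial lineage, hand2 had 0.31 ± 0.37 (adjusted p = 0.72, edgeR) and turned to -0.15 without the 72 hpf sqet33mi59BEt library. gata6 there read 170 and 236 CPM at 72 hpf against 278 and 261 CPM at 48 hpf, with a fold change of -0.33 ± 0.34 (adjusted p = 0.67, edgeR) that turned to 0.03 after thinning. The 48 hpf values rest on 54 and 34 cushion cells.

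Among the bHLH relatives of hand2, twist1b and tcf12 passed in AV cushion. twist1b, a bHLH factor of mesenchyme, rose to between 376 and 532 CPM at 72 hpf, against 28.9 to 30.9 CPM at 48 hpf (log2 fold change 3.97 ± 0.45, adjusted p = 6.3e-05, edgeR), and passed in every alternative. The E-protein gene tcf12 rose to between 291 and 378 CPM, against 116 to 135 CPM at 48 hpf (1.55 ± 0.38, adjusted p = 0.023, edgeR), and lost the call in 6 of 9 alternatives. The list of fibroblast markers moved in the same direction (4130 and 3383 CPM at 72 hpf against 1065 and 1766 CPM at 48 hpf for col1a1a, col1a2 and msx1a together). In this cluster the list is not foreign, since the authors tell AV cushion from AV endocardium by matrix genes that include col1a1a and col1a2. Liver and gut markers were higher at 72 hpf too (180 and 261 CPM against 0 and 9.65 CPM at 48 hpf). The endothelial list was lower at 72 hpf (2419 and 3891 CPM against 4814 and 4969 CPM at 48 hpf), without overlap. The Epicardium list was lower too (75.6 and 143 CPM against 185 and 357 CPM). The part of these lists in the changes of twist1b and tcf12 was not tested. Of the 9 genes in the list of hand2 and its bHLH relatives, 4 were tested in AV cushion. Of these 2 were called higher and 0 lower, with a median of 0.93 against 0.00 over all genes. Among all genes tested there, 3.68% were higher and 2.23% lower.

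gata6 had its largest positive fold changes in the outer and outflow clusters. In Bulbus arteriosus it read 124 and 210 CPM at 72 hpf against 86.7 and 64.1 CPM at 48 hpf, without overlap, for a fold change of 1.01 ± 0.38 (adjusted p = 0.12, edgeR). The adjusted p lay between 0.074 and 0.41 over 9 alternatives, and the direction was positive in each. hand2 in this cluster read 385 and 406 CPM at 72 hpf against 232 and 294 CPM at 48 hpf, also without overlap, with a fold change of 0.49 ± 0.35 (adjusted p = 0.50, edgeR). The Bulbus arteriosus markers moved with both, as given above, so a difference in what the cluster held at each stage and a difference in expression cannot be told apart. In Epicardium, gata6 read 277 and 286 CPM at 72 hpf against 162 and 35.4 CPM at 48 hpf, for a fold change of 1.20 ± 0.59 (adjusted p = 0.26, edgeR). The 48 hpf values came from 11 UMIs in 33 cells and 1 UMI in 15 cells, and the Epicardium markers were scarcer there too. Leaving out a library moved this fold change between 0.64 (without 48 hpf sqet33mi59BEt) and 3.06 (without 48 hpf sqet31Et). hand2 in Epicardium read 215 and 374 CPM at 72 hpf and 279 and 354 CPM at 48 hpf, and its fold change of -0.15 ± 0.48 turned to 0.26 without the filter on low counts.

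In Myocardium, hand2 read 223 and 373 CPM at 72 hpf and 360 and 261 CPM at 48 hpf (log2 fold change -0.24 ± 0.33, adjusted p = 0.77, edgeR). gata6 had a fold change of -0.53 ± 0.35 (adjusted p = 0.50, edgeR), which was -0.12 without the 48 hpf sqet31Et library and -0.90 without the 48 hpf sqet33mi59BEt library. Their level was therefore not shown to differ between stages at this spread. Of 33 genes in the list of cardiac transcription factors, 23 were matched and 20 tested in Myocardium. Of these 1 was higher and 5 lower, with a median of -0.69 against 0.01 over all genes. Among all genes tested there, 3.29% were higher and 0.82% lower. nkx2.7, tbx20, heyl and irx4a were among those that fell, and tbx18 rose. The T-box factor gene tbx20 was at 32.8 to 45.0 CPM at 72 hpf against 101 to 153 CPM at 48 hpf, and it passed in every alternative. tbx18 is an epicardial marker, which the paper also lists among genes of the sinoatrial pacemaker. It read 16.8 to 18.8 CPM at 72 hpf against 2.77 to 5.43 CPM at 48 hpf. The Epicardium list, of which tbx18 is itself a member, stood in Myocardium at 45.1 and 62.8 CPM at 72 hpf against 14.7 and 11.1 CPM at 48 hpf. The list of endothelial markers in Myocardium stood at 280 and 451 CPM at 72 hpf against 80.0 and 152 CPM at 48 hpf, that of fibroblast markers at 203 and 214 CPM against 31.5 and 33.8 CPM, that of liver and gut markers at 200 and 272 CPM against 1.81 and 0 CPM, and that of myocardial markers at 26440 and 22977 CPM against 53819 and 39721 CPM. The part of these lists in the values of hand2 and gata6 was not tested.

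Other list genes were called in the remaining clusters as well. Of the cardiac transcription factors, 16 were tested in Endothelial cells (1 higher, 1 lower), 10 in AV endocardium (0 higher, 1 lower) and 7 in AV cushion (1 higher, 1 lower). In Epicardium 4 were tested and 0 called. In Bulbus arteriosus 10 were tested, with 3 higher and 2 lower, where 4.68% of all genes were higher and 3.98% lower. tbx20 fell in Endothelial cells and AV endocardium and rose in Bulbus arteriosus, and tbx18 rose in Endothelial cells and Bulbus arteriosus. In AV cushion klf2a fell and snai1b rose, in Epicardium twist1b fell, and in Bulbus arteriosus mef2aa and the FOG cofactor zfpm1 rose and scxa and nr2f2 fell. Of the 23 stage calls of list genes, 4 passed in every alternative in which the gene was tested: tbx20 and irx4a in Myocardium, tbx18 in Endothelial cells and twist1b in AV cushion. irx4a and tbx18 were not tested after thinning.

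**Figure D3:**
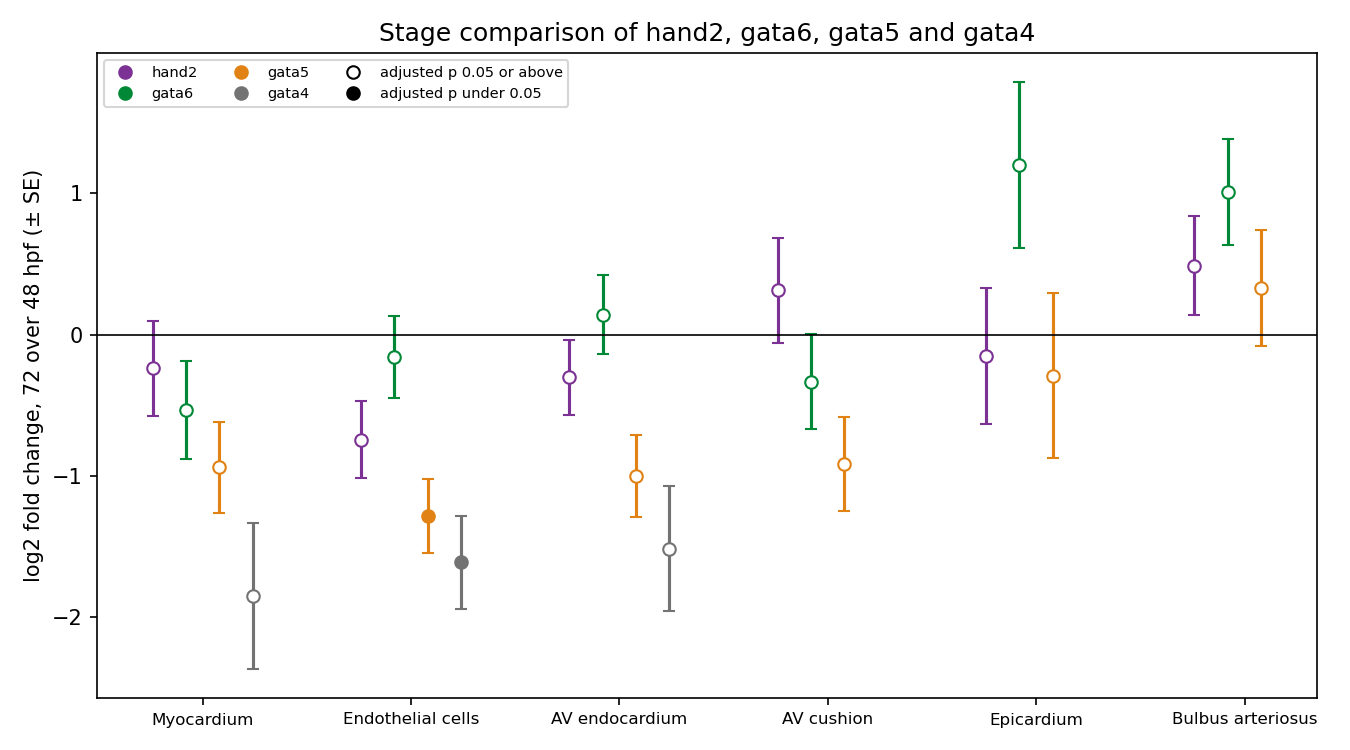
Log2 fold change between 72 and 48 hpf (72 over 48 hpf, ± SE, edgeR) of hand2, gata6, gata5 and gata4 in 6 clusters; filled points have an adjusted p under 0.05 and gata4 is shown where it passed the filter on low counts. gata6 reads 1.20 in Epicardium and 1.01 in Bulbus arteriosus with open points, and the filled points are gata5 (-1.29) and gata4 (-1.61) in Endothelial cells.

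Stage differences outside these 6 clusters were not tested. In Neural crest, gata6 read 96.9 and 86.3 CPM at 72 hpf against 18.8 and 9.75 CPM at 48 hpf, from 55 and 24 UMIs against 16 and 14 UMIs. The stages did not overlap, but the 72 hpf values were at the level of Erythrocytes in the sqet33mi59BEt library (101 CPM) and above it in the sqet31Et library (47.2 CPM). hand2 in Neural crest read 409 and 604 CPM at 72 hpf and 225 and 444 CPM at 48 hpf, with overlap. Median depth in Neural crest was 2053 and 1078 UMIs per cell at 72 hpf against 5861 and 7158 at 48 hpf. The part of depth in these values was not tested.

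Myocardium cells were next split by their myosin heavy chains. Those with more UMIs of myh6 (ENSDARG00000090637), the atrial form in zebrafish, numbered 1034, and those with more UMIs of myh7l (ENSDARG00000079782), a ventricular form, 2275, while 470 cells had equal numbers, 403 of them 0 of both. Of the cells in the classes, 460 were assigned by a difference of 1 UMI. hand2 and gata6 took no part in the split. In these sums 17.6% of 6246 genes passed, and neither hand2 nor gata6 was among them in edgeR or DESeq2, nor had either an unadjusted p under 0.05 in edgeR.

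In CPM, gata6 was higher in myh6 than in myh7l cells in 4 of 4 libraries. It read 200 and 216 CPM in myh6 cells against 165 and 189 CPM in myh7l cells at 72 hpf, and 391 and 218 CPM in myh6 cells against 238 and 163 CPM in myh7l cells at 48 hpf. The fold change was 0.24 ± 0.14 (adjusted p = 0.29, edgeR with library as a block), and the difference did not pass. With library totals, which moved the median of all genes to 0.18, against -0.01 with TMM, it was 0.43 (adjusted p = 0.062). Depth differed between the classes in the 48 hpf sqet31Et library, where the gata6 difference was largest, with a median of 6255 UMIs per myh6 cell and 1579 per myh7l cell. Its part in the difference was not tested. After thinning to 500 UMIs, 17.3% of myh6 cells and 8.49% of myh7l cells of that library held a gata6 UMI. In the 48 hpf sqet33mi59BEt library the thinned shares were 8.73% of myh6 cells and 6.74% of myh7l cells. At 72 hpf they were 9.09% of myh6 cells and 7.13% of myh7l cells in sqet31Et. In sqet33mi59BEt at 72 hpf the order was the reverse of the CPM, with 7.73% of myh6 cells and 8.49% of myh7l cells. hand2 was higher in myh6 cells in 2 of 4 libraries. It read 211 and 355 CPM in myh6 cells against 231 and 392 CPM in myh7l cells at 72 hpf, and 391 and 285 CPM in myh6 cells against 338 and 253 CPM in myh7l cells at 48 hpf. Its fold change of -0.15 ± 0.13 (adjusted p = 0.50, edgeR) turned to 0.03 with library totals. Library totals also changed the split of all called genes, of which 71.6% were higher in myh6 cells, against 44.1% with TMM.

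The number of hand2 UMIs per gata6 UMI, free of scaling and chosen as a measure after these values were seen, was lower in myh6 cells in 4 of 4 libraries. It was 1.05 and 1.64 in myh6 cells against 1.40 and 2.08 in myh7l cells at 72 hpf, and 1.00 and 1.31 in myh6 cells against 1.42 and 1.55 in myh7l cells at 48 hpf. The mean log2 difference was -0.38 ± 0.11 (SD, n = 4), with an exact two-sided sign-flip p of 0.13, the smallest that 4 libraries can give. After thinning it was lower in 3 of 4 libraries (-0.54 ± 0.54). The 6 endothelial markers together were lower in myh6 cells in each library, at 51.7 to 351 CPM against 98.3 to 469 CPM in myh7l cells. The 4 erythrocyte markers were lower in each library too, at 11.3 to 212 CPM in myh6 cells against 17.9 to 366 CPM in myh7l cells. The part of these lists in the ratio was not tested.

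**Figure D4:**
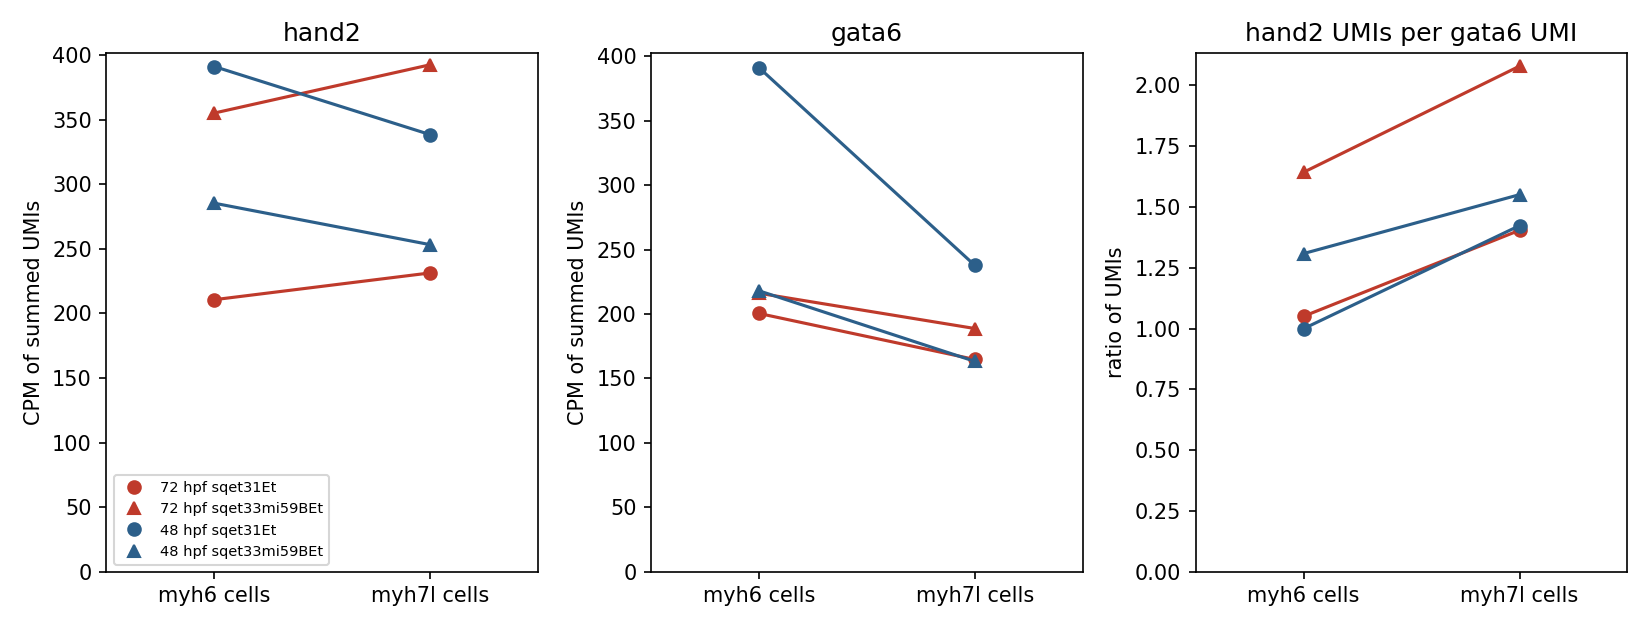
Level of hand2 (left) and gata6 (middle) in CPM, and hand2 UMIs per gata6 UMI (right), in myh6 cells and myh7l cells of Myocardium, with a line joining the classes of each library (red at 72 hpf, blue at 48 hpf). gata6 is higher and the ratio lower in myh6 cells in 4 of 4 libraries, while hand2 is higher in 2 of 4.

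The class difference was not shown to depend on stage. The interaction was -0.20 ± 0.20 for hand2 (adjusted p = 0.72, edgeR) and -0.23 ± 0.22 for gata6 (adjusted p = 0.71, edgeR), in a fit in which 2.58% of genes passed. For gata6 the class effect was 0.13 ± 0.17 at 72 hpf and 0.36 ± 0.15 at 48 hpf, with adjusted p of 0.69 and 0.087. At 48 hpf its unadjusted p was 0.022 (edgeR), and the effect did not pass after adjustment.

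Other heart factors differed between the classes. Of 14 cardiac transcription factors tested, 5 were higher and 4 lower in myh6 cells, with a median of 0.00 against -0.01 over all genes. Of all genes tested between the classes, 7.76% were higher and 9.85% lower in myh6 cells. shox2, a factor of the sinoatrial region, averaged 41.2 CPM in myh6 cells and 0.43 CPM in myh7l cells (log2 fold change 5.52 ± 0.41), and tbx5a, mef2aa and meis2b were higher in myh6 cells as well. irx2a averaged 3.97 CPM in myh6 cells and 124 CPM in myh7l cells (-5.87 ± 0.34), and hey2, nkx2.5 and nkx2.7 were lower in myh6 cells too. In the list of hand2 and its bHLH relatives, 4 genes were tested, hand2 itself included. The E-protein gene tcf3b was higher (0.71 ± 0.18, adjusted p = 0.015, edgeR) and twist1b lower in myh6 cells (-1.58 ± 0.23, adjusted p = 0.00033, edgeR). None of the 4 tested genes of the GATA and FOG list passed in edgeR (1 had an unadjusted p under 0.05), and their fold changes lay between 0.04 and 0.50. Of the 11 calls, those of twist1b, shox2, hey2 and irx2a passed in every alternative in which they were tested, and 3 others, nkx2.7 and tbx5a among them, in every one but the fit without the library block. Of these genes, irx2a alone was also tested after thinning. The call of nkx2.5 was lost in 7 of 11 alternatives and that of mef2aa in 8 of 11. meis2b lost its call in 6 of 10 alternatives and tcf3b in 4 of 11.

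Within myh6 cells, those with UMIs of at least 2 of the 4 matched sinoatrial markers (shox2, isl1, lyve1a and vsnl1a) numbered 95, of which 65 came from the 48 hpf sqet31Et library. Since 2 libraries had 10 or more such cells, no test was made. hand2 was higher in these sinoatrial marker cells than in the other myh6 cells in 4 of 4 libraries. In the 48 hpf sqet31Et library it read 768 CPM in sinoatrial marker cells (349 UMIs, 95% exact Poisson interval 690 to 853) against 304 CPM in the other myh6 cells (280 to 329). In the 72 hpf sqet31Et library, with 18 cells, it read 269 CPM (162 to 420) against 206 CPM (176 to 239) in the other cells, with overlapping intervals. In the sqet33mi59BEt libraries, with 6 cells each, it read 894 CPM at 72 hpf (6 UMIs, 328 to 1946) and 1459 CPM at 48 hpf (34 UMIs, 1010 to 2039). The other myh6 cells of these libraries read 341 CPM (273 to 421) at 72 hpf and 207 CPM (162 to 260) at 48 hpf. The intervals cover counting error only, not the spread between cells. In each sqet33mi59BEt library, 66.7% of the 6 marker cells held a hand2 UMI.

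gata6 was also higher in the sinoatrial marker cells in 4 of 4 libraries. It read 478 CPM (416 to 545) against 371 CPM (345 to 399) in the other myh6 cells of the 48 hpf sqet31Et library, and 340 CPM (218 to 505) against 188 CPM (160 to 221) in the 72 hpf sqet31Et library. In the sqet33mi59BEt libraries it read 298 CPM at 72 hpf (from 2 UMIs) and 601 CPM at 48 hpf (from 14 UMIs), against 214 and 192 CPM in the other myh6 cells. The intervals of the sinoatrial marker and other cells were apart in 2 of 4 libraries for hand2 and in 2 of 4 for gata6. Depth moved with the rule. Median UMIs per cell at 72 hpf were 3657 in sinoatrial marker cells and 2144 in other cells for sqet31Et, and 1080 and 1005 for sqet33mi59BEt. At 48 hpf they were 6920 in sinoatrial marker cells and 5834 in other cells for sqet31Et, and 4082 and 2107 for sqet33mi59BEt. After thinning to 500 UMIs, hand2 UMIs were held by a larger share of sinoatrial marker cells than of other cells in each library. At 72 hpf the shares were 11.1% of sinoatrial marker cells and 5.52% of other cells in sqet31Et, and 33.3% and 15.4% in sqet33mi59BEt. At 48 hpf they were 32.3% of sinoatrial marker cells and 11.3% of other cells in sqet31Et, and 50% and 10.8% in sqet33mi59BEt. These shares rest on 18 marker cells in the 72 hpf sqet31Et library and on 6 in each sqet33mi59BEt library. For gata6 the thinned shares were 11.1% of sinoatrial marker cells and 8.97% of other cells, and 16.7% and 7.46%, at 72 hpf. At 48 hpf they were 18.5% and 17.1% in sqet31Et and 0% and 9.17% in sqet33mi59BEt, so the order of gata6 in that last library, with 6 marker cells, was the reverse of its CPM.

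**Figure D5:**
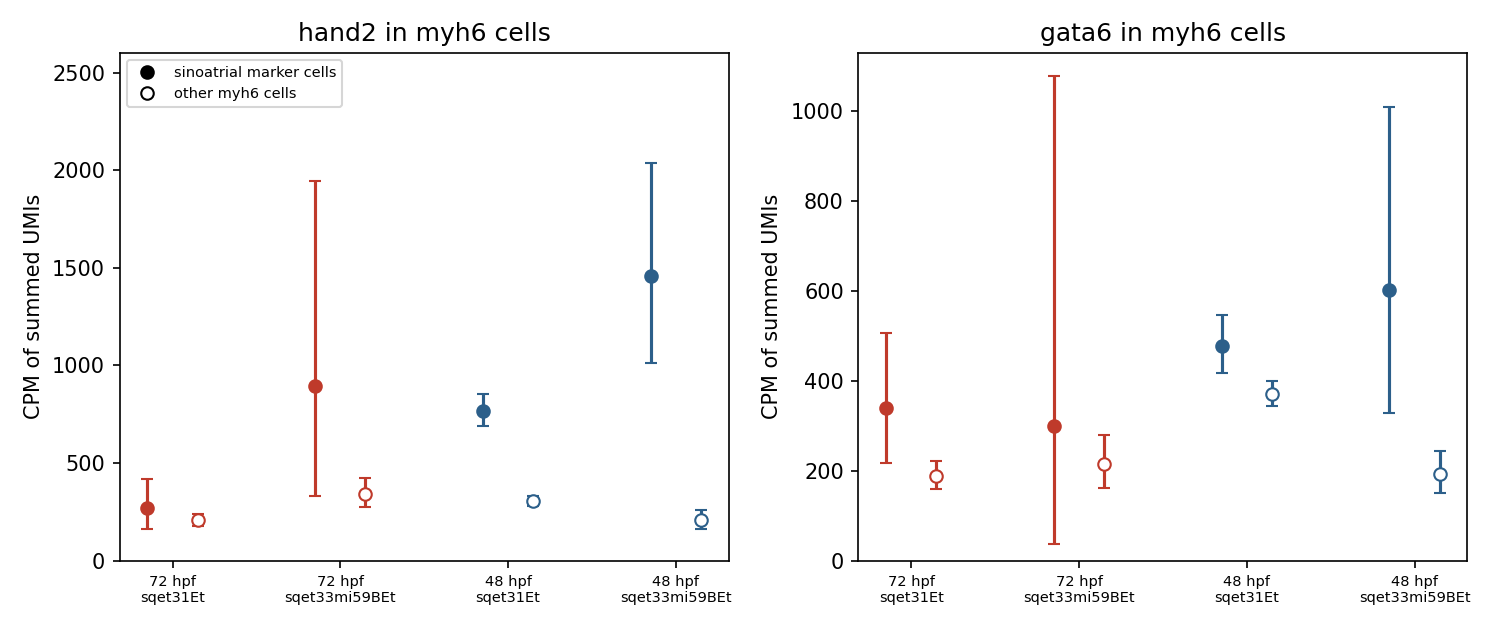
Level of hand2 (left) and gata6 (right) in CPM in sinoatrial marker cells (filled) and other myh6 cells (open) of each library, with 95% exact Poisson intervals of the UMIs. The hand2 intervals are apart at 48 hpf (768 against 304 CPM in sqet31Et, 1459 against 207 CPM in sqet33mi59BEt) and overlap at 72 hpf.

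Detection of hand2 and gata6 in the same cells was compared with what their separate frequencies gave. In Myocardium thinned to 500 UMIs, 458 of 3779 cells held hand2, 325 held gata6 and 51 held both, where 39.8 were expected from unrelated detection within libraries. The share of cells with hand2 was 2.99 ± 3.72 percentage points higher among cells with gata6 than among the others (SD, n = 4 libraries, higher in 3 of 4, exact two-sided sign-flip p = 0.375). In Endothelial cells, 151 cells held both against 138 expected, with a difference of 2.22 ± 3.89 points (exact p = 0.375). AV endocardium had 36 against 37.8 expected (-3.57 ± 7.98 points, exact p = 0.375) and AV cushion 19 against 18.4 (0.11 ± 10.5 points, exact p = 1). With 4 libraries no p under 0.13 was possible. Adjusted over the 4 clusters, the exact p-values were 0.5 in the first 3 and 1 in AV cushion. A design of this size could not pass the threshold.

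Thinning to 1000 UMIs also drops the shallower cells, which left 2528 Myocardium cells, 7892 Endothelial cells, 1289 AV endocardium cells and 359 AV cushion cells. In these, the difference was 8.05 ± 4.14 points in Endothelial cells and 11.5 ± 7.30 points in AV endocardium, higher in 4 of 4 libraries in both (exact p = 0.13), 4.25 ± 3.67 points in Myocardium and -2.80 ± 9.96 points in AV cushion. In cells as counted, where deeper cells hold both genes more often, 808 Myocardium cells held both against 538 expected, and the difference was 30.4 ± 14.0 points. The mean difference in AV endocardium was thus positive with 1000 UMIs per cell and negative with 500, and the part of the depth and of the dropped cells was not told apart.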

How the data were processed

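Whole hearts at 72 and 48 hpf were dissociated and sequenced by the authors with a 10x Genomics 3' kit. The authors counted UMIs with Cell Ranger on the GRCz11 genome extended with EGFP and mRFP, and deposited raw UMI counts per gene and barcode, without normalization. They also deposited a cell table with the mitochondrial percent per cell, doublet calls and the cluster annotation made in Seurat after integration of the libraries. In the deposited table annotated cells had at least 500 UMIs, 216 to 2499 genes and at most 30.0 percent mitochondrial UMIs, and all had the singlet call. The authors filtered on genes, mitochondrial and hemoglobin content and doublets, and no doublet caller was run again. Gene names were matched to identifiers through the symbols, or the human symbols, that the annotation gives them. For some a and b copies the annotation gave a human symbol without the letter. The letter was then inferred, since the other copy had its own symbol or was not listed. Among the genes named here this holds for tbx5a, mef2aa, irx4a, scxa, irx2a and vsnl1a.

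UMIs were summed per library and cluster, or class, and tested in edgeR 4.0.16 (TMM, filterByExpr, quasi-likelihood F test, p-values adjusted by Benjamini-Hochberg across every gene tested, threshold 0.05), with stage alone, or with library as a block for classes. DESeq2 1.42.0, library totals, no filter, thinning to 500 UMIs per cell, a line block, other class rules and leaving out each library were the alternatives. SE is the fold change divided by the root of F. The tests were checked on simulated counts. Named genes were hand2, gata6, the genes of 3 lists that passed the threshold, and the 5 genes most like each by Pearson's r over the 18 clusters. The members and lists were chosen with earlier results of these data known. No EGFP or mRFP values were used. A gene of the list of cardiac transcription factors is counted in that list but its own values are not reported here.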

Additional observations from a re-analysis of the deposited data

Results flagged for a closer look

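In the 4 libraries of each cluster, the level of 1 library stood far from the others in 4 of 36 groups (18 clusters for each gene), where chance flags about 1 in 20 groups. gata6 in Myocardium read 303 CPM in the 48 hpf sqet31Et library, from 1677 UMIs, against 170 to 192 CPM in the other 3. hand2 in Resident fibroblasts read 12.5 CPM in the 72 hpf sqet31Et library, from 1 UMI in 36 cells. gata6 in Leukocytes read 76.3 CPM in the 48 hpf sqet31Et library, from 5 UMIs, and gata6 in Neuronal cells 8.31 CPM in the 72 hpf sqet31Et library, from 3 UMIs.

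Barcodes without an annotation carry the deposited doublet mark but include those outside the authors' gene limits, and were used in no comparison. They held 53744 hand2 UMIs (61.5% of all hand2 UMIs) and 23439 gata6 UMIs (68.0% of all gata6 UMIs). The annotated share moved with stage, at 50.6% and 55.2% of hand2 UMIs at 72 hpf against 43.8% and 28.8% at 48 hpf. For gata6 it was 49.6% and 58.7% at 72 hpf against 39.1% and 17.1% at 48 hpf. In the left-out barcodes gata6 read 88.5 and 88.1 CPM at 72 hpf against 171 and 160 CPM at 48 hpf. There hand2 read 218 and 261 CPM at 72 hpf against 360 and 366.5 CPM at 48 hpf. Their part in the stage comparisons was not tested.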

How the results depend on the processing

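Over 140 fold changes of hand2 and gata6 under alternatives, 127 kept their direction and side of the threshold, 12 changed sign and 1 newly passed. hand2 in Endothelial cells lay between -0.97 and -0.59 when single libraries were left out and passed without the 72 hpf sqet33mi59BEt library. gata6 in Endothelial cells was 0.13 with library totals and 0.055 after thinning, and -0.50 to 0.086 without single libraries. The leave-one-out ranges were -0.18 to 0.43 for gata6 in AV endocardium, -0.15 to 0.71 for hand2 in AV cushion and -0.35 to 0.23 for hand2 in Epicardium. gata6 in AV cushion was 0.027 after thinning. hand2 in Epicardium was 0.26 without the filter and 0.36 after thinning, and hand2 between the classes was 0.034 with library totals. Co-detection in AV endocardium turned to 11.5 points at 1000 UMIs and 5.50 points as counted. In AV cushion it was -2.80 points at 1000 UMIs and -3.18 to 5.05 points without single libraries. Of the 6 co-detection values that changed sign, 3 came from leaving out single libraries in AV cushion. The mean log2 difference of the hand2 to gata6 ratio between the classes was negative in all 7 alternatives, though after thinning the ratio was lower in 3 of 4 libraries. The interaction, the leave-outs of levels and of co-detection, and the ratio were alternatives or measures chosen after seeing the data. The cause of these changes was not tested.

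Line as a replicate block changed no call of hand2 or gata6. Same-line samples deviated together only weakly (r of 0.03 to 0.12 across genes), and calls went to 517 genes with the block against 331 without it in AV endocardium, and 184 against 110 in Epicardium. Fits of the classes without the library block called 172 genes against 1100 with it. Other counts of called genes that moved by over 1.5 times were, in order of Myocardium (384), Endothelial cells (1055), AV endocardium (331), AV cushion (146), Epicardium (110), Bulbus arteriosus (470) and the classes (1100), as follows. After thinning they were 111, 379, 117, 31, 19, 155 and 277. Without the filter they were 866, 1962, 688, 232 and 727, with Epicardium and the classes within 1.5 times. DESeq2 called 205 in AV endocardium, 76 in AV cushion, 309 in Bulbus arteriosus and 706 between the classes, and library totals gave 169 in Epicardium. Without single libraries they ran from 199 to 523, 595 to 1858, 0 to 397, 128 to 259, 52 to 161, 235 to 518 and 561 to 974. The 0 in AV endocardium came from edgeR without the 48 hpf sqet31Et library (846 genes at an unadjusted p under 0.05) and without the 48 hpf sqet33mi59BEt library (807 genes). The comparison of sinoatrial marker cells had no test and hence no alternatives. Library totals moved the median fold change of all genes to 0.13, 0.26, 0.14, -0.08, 0.25, 0.10 and 0.18 in the same order, and DESeq2 moved the share of higher calls in Epicardium to 37.9%, against 55.5% in edgeR. Shallow sums limit Epicardium most, with 15 cells in 1 library.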
